A study of Mus musculus with 2 samples.

Results

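The 9 genes described here encode transcription factors with known roles in the meninges or the skull vault. They were followed through single-cell RNA sequencing of the embryonic mouse coronal suture, the fibrous joint between the frontal and parietal bones. They were chosen by symbol: *Foxc1*, *Foxc2*, *Foxd1*, *Zic1*, *Zic4*, *Tbx15*, *Tbx18*, *Lmx1b* and *En1*, 9 of the 27514 genes listed for both stages. All 9 were among the 12150 genes with at least 50 unique molecular identifiers (UMIs, the tags that count single captured transcripts) in the labelled cells of each stage. The study captured cells from wildtype embryos (C57/BL6 in the labels, C57BL/6J in the study's reporting summary) at embryonic days E15.5 and E17.5, and 1 sample was deposited for each stage. At E15.5, 10 sutures were pooled and digested with collagenase II and dispase. At E17.5, 16 sutures from 2 litters were digested with collagenase IV in 3 batches and live cells were sorted. No group carried an allele, an agent or any treatment.

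The authors labelled 15 clusters of osteogenic and mesenchymal cells: 4 meningeal (MG1 to MG4), 5 ectocranial (EC1 to EC4 and LIG), 4 osteogenic (OG1 to OG4) and 2 proliferating osteogenic (PO1 and PO2). The matrices held 5335 labelled cells with 48607817 UMIs at E15.5 and 6830 with 92585034 UMIs at E17.5, at medians of 8510 and 12301.5 UMIs a cell. The E17.5 matrix joined 3 barcode suffixes of 1234, 2770 and 2826 labelled cells, which no source ties to the batches. In the study, splitting the E17.5 cells into batches served as a technical control. Suffix 1 held no MG1 cell. The E15.5 matrix did not hold the counts behind the authors' own table: none of its labelled cells had the same UMI total in both, against 6830 of 6830 at E17.5. Between the stages, 190 barcode sequences were shared, 42 of them among labelled cells. The study also dissected the stages differently, used a dead-cell removal kit at E15.5 and sequenced the stages at different centres. With 1 sample a stage no difference could be tested. The stage, dissection, enzyme, dead-cell removal, sort, embryos, sequencing centre and counting software cannot be told apart. Values are therefore descriptions: UMIs of a gene summed over the cells of a cluster per 1000000 UMIs of those cells (CPM), with exact Poisson 95% intervals that cover counting error only. The authors made the clusters from the same cells, so a difference between clusters is not a test of the cluster.

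The meninges are the membranes between brain and skull, with the dura outermost and the arachnoid beneath it, and in mouse the meninges over the forebrain come largely from the neural crest. Forkhead (Fox) proteins bind DNA through a winged helix, Zic proteins through zinc fingers, Tbx proteins through the T-box, and Lmx1b and En1 through a homeodomain. *Foxc1* is needed for the meninges and the calvarial bones to form, and *En1* for the position of the coronal suture and for calvarial bone formation.

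The labels were checked with 17 layer genes. Each of the 8 meningeal genes, *Aldh1a2*, *Cldn11* and *Gjb6* of the arachnoid and *Gja1*, *Fxyd5*, *Crabp2*, *Nppc* and *Matn4* of the dura, was highest in an MG cluster in both samples. The 4 osteogenic genes were highest in OG clusters in both. Of the 5 ectocranial genes, *Tnmd* was the exception, highest in LIG at E15.5 and in MG1 at E17.5. Only clusters of at least 50 cells were ranked, so MG1 (28 cells) and PO2 (35 cells) were left out at E15.5. The 2 *Tnmd* leaders therefore do not come from the same set of clusters. The list was drawn in part from markers the study itself used, so it is no independent check.

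*Foxc1*, *Foxc2* and *Foxd1* marked the meningeal clusters. Of 135 pairs of a gene and a cluster, 15 were at least 2-fold above all other labelled cells in both samples, against 1.88% of such pairs over all genes. Of these 15 pairs, 12 were the 3 Fox genes in each of MG1 to MG4, and the others were *Zic4* and *Tbx18* in MG4 and *Lmx1b* in MG1. The *Lmx1b* pair rested on 2 UMIs at E15.5. None was in an ectocranial or osteogenic cluster.

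*Foxc1* lies on chromosome 13 at 31806633 to 31812476 on the plus strand of GRCm38 and *Foxd1* on the same chromosome at 98354242 to 98359305, also on the plus strand. *En1*, which showed the opposite pattern below, lies on chromosome 1 at 120602418 to 120607992 on the plus strand. The stretches from 250 to 71 bases before their RefSeq starts (GRCm38.p6) are shown for these 3 genes, because they stood at opposite ends of the meningeal contrast. Capitals mark CCAAT boxes (CCAAT on either strand) and GC boxes (GGGCGG on either strand).
Foxc1, chr13:31806396-31806575, plus strand: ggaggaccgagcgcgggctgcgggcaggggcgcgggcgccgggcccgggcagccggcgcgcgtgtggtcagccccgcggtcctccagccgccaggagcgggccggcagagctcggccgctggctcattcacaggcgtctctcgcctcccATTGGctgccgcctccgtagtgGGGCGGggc
Foxd1, chr13:98353995-98354174, plus strand: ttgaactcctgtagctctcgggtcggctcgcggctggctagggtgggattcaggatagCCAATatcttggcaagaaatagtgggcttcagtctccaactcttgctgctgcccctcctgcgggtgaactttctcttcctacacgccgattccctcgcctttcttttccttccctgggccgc
En1, chr1:120602237-120602416, plus strand: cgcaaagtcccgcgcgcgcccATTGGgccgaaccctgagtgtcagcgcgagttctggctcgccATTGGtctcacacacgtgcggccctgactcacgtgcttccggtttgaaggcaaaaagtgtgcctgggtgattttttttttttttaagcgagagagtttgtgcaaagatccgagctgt
Foxc1 held 1 CCAAT box and 1 GC box, Foxd1 1 CCAAT box and En1 2 CCAAT boxes. Over 32851 RefSeq promoter windows of the same 180 bases, 25.0% held a CCAAT box and 21.1% a GC box. The forkhead core TAAACA (9.51% of windows), the homeodomain core TAATTA (3.86%) and the T-box core AGGTGT (8.94%), each searched on both strands, were in none of these 3 windows. These are matches of letters, not sites. RefSeq windows were matched for 7 of the 9 genes, and *Foxc2* and *Tbx15* were not among them.

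*Foxc1* stood at one level through the MG clusters at E15.5. It was at 95.4 CPM in MG1, 107 in MG2, 92.6 in MG3 and 101 in MG4, with overlapping intervals. Outside them it was between 1.85 CPM in EC2 and 5.20 in EC1 among the ectocranial clusters, and between 3.43 in PO1 and 27.1 in OG3 among the osteogenic ones. At E17.5 it was at 65.6 CPM in MG1 (59.0 to 72.7), 84.5 in MG2, 84.3 in MG3 and 114 in MG4 (99.6 to 130). There MG4 stood above MG2, its next neighbour in the order, and no cluster outside the meninges passed the 17.7 CPM of OG1. Of the meningeal cells, 53.3% held a *Foxc1* UMI in the E15.5 sample and 55.5% in the E17.5 sample. With every cell thinned to 3000 UMIs these shares were 25.6% and 21.5%, against 1.56% and 1.25% in the myeloid-like cells described below.

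*Foxc2*, the close relative of *Foxc1* on chromosome 8 (121116171 to 121118895, plus strand), was graded within the meninges. At E15.5 it was at 15.3 CPM in MG1 (4 UMIs), 26.3 in MG2, 58.0 in MG3 (47.8 to 69.7) and 107 in MG4 (83.5 to 135). At E17.5 the values were 15.6, 18.8, 115 and 96.4 CPM. MG3 and MG4 stood above MG1 and MG2 in both samples without overlap of intervals, although the E15.5 interval of MG1 was wide (4.16 to 39.1). MG4 exceeded MG3 beyond counting error at E15.5 and overlapped with it at E17.5. In the other labelled clusters *Foxc2* did not pass 6.20 CPM (PO2, 3 UMIs) at E15.5 or 2.77 (EC1) at E17.5. The annotation places the gene model Gm20388 over it on the same strand, and that model had 0 UMIs in the labelled cells of both samples.

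*Foxd1*, known for its role in stromal cells of the kidney and in the forebrain, followed the same clusters at another scale. At E15.5 it was at 72.5 CPM in MG1, 53.6 in MG2, 72.7 in MG3 and 73.7 in MG4. At E17.5 it was at 130 CPM in MG1, 73.1 in MG2, 207 in MG3 and 182 in MG4. The neighbours MG4 and MG1, and MG1 and MG2, were apart beyond counting error at E17.5, while at E15.5 the 4 clusters overlapped in order. Outside the meninges the highest level was in OG1, at 10.4 and 18.9 CPM.

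**Figure D1:**
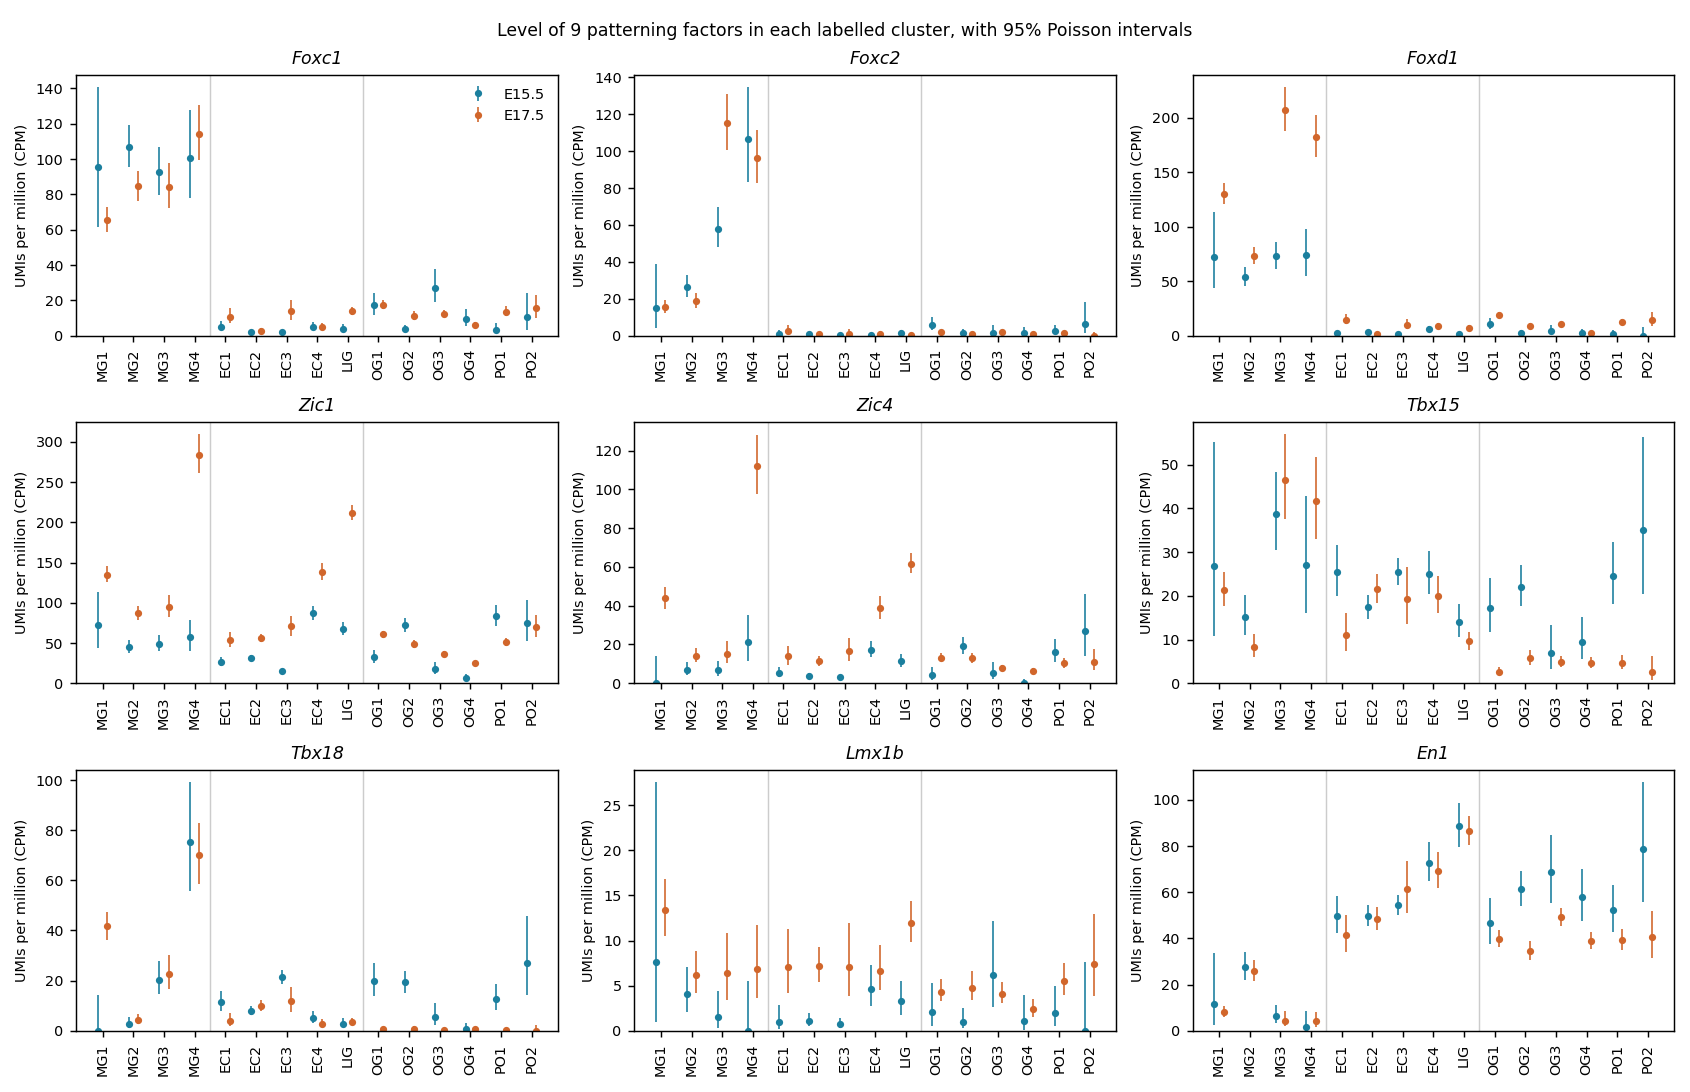
Level of each gene (CPM, linear axes starting at 0) in the 15 labelled clusters at E15.5 (blue) and E17.5 (orange), points with exact Poisson 95% intervals; grey lines part meningeal, ectocranial and osteogenic clusters. Among these labelled clusters, *Foxc1*, *Foxc2* and *Foxd1* are high in MG1 to MG4 alone, *En1* is lowest there, and *Zic1* and *Zic4* peak in MG4 and LIG at E17.5.

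Summed over the regions, these 3 genes were the ones at least 2-fold higher in meningeal than in ectocranial cells in both samples, 3 of 9 against 3.14% of all genes. *Foxc1* was at 101 CPM in meningeal and 2.93 in ectocranial cells at E15.5, a ratio of 34.5 (27.6 to 43.5), and at 81.1 and 8.61 at E17.5, a ratio of 9.43 (8.17 to 10.9). The *Foxc2* ratios were 74.6 and 43.6 and the *Foxd1* ratios 24.5 and 19.0. The same 3 genes passed the limit over osteogenic cells in both samples, where 5.61% of all genes did, with ratios of 10.4 and 6.53 for *Foxc1*, 17.1 and 30.6 for *Foxc2* and 15.7 and 11.5 for *Foxd1*. Barcode suffixes 1, 2 and 3 of E17.5 gave *Foxc1* ratios over ectocranial cells of 22.1, 9.04 and 7.497, so the E17.5 value differed between suffixes by more than its counting interval. Within each suffix the ratios over osteogenic cells were 8.99, 6.02 and 6.32 for *Foxc1*, 37.6, 33.3 and 26.4 for *Foxc2* and 11.7, 12.1 and 10.9 for *Foxd1*. The ectocranial levels of these genes at E15.5 were no higher than those of myeloid-like cells, at 6.30, 1.84 and 2.63 CPM for *Foxc1*, *Foxc2* and *Foxd1*.

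*En1* ran the other way. It was the gene at least 2-fold lower in meningeal than in ectocranial cells in both samples (1 of 9, against 4.50% of all genes) and than in osteogenic cells (1 of 9, against 5.09%). Meningeal cells had 16.9 CPM at E15.5 and 13.1 at E17.5, ectocranial cells 59.3 and 65.8, and osteogenic cells 58.3 and 41.1. Within the meninges MG2 stood out at 27.6 CPM (22.0 to 34.3) at E15.5 and 25.8 (21.5 to 30.8) at E17.5, against 11.5 and 8.17 in MG1, 6.61 and 4.41 in MG3 and 1.51 and 4.21 in MG4. The step from MG2 to MG1 was beyond counting error at E17.5 only, since MG1 had 3 UMIs at E15.5. The highest cluster in both samples was LIG, at 88.7 CPM (79.7 to 98.5) and 86.6 (80.7 to 92.8). EC1, EC2, EC3 and EC4 were at 49.7, 49.6, 54.4 and 72.8 CPM at E15.5 and at 41.5, 48.6, 61.4 and 69.2 at E17.5. The osteogenic clusters overlapped in order, from 46.8 in OG1 to 78.5 in PO2 at E15.5 and from 34.7 in OG2 to 49.1 in OG3 at E17.5. At E15.5 the MG1, MG3 and MG4 levels did not exceed those of myeloid-like cells (9.98 CPM, 7.06 to 13.7) beyond counting error, while at E17.5 all 3 stood above them (0.6004 CPM, 0.124 to 1.75).

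*Zic1* and *Zic4* lie on chromosome 9 as a neighbouring pair on opposite strands, *Zic1* at 91358058 to 91365810 on the minus strand and *Zic4* at 91362413 to 91389348 on the plus strand. The annotated genes overlap, and whether counting used strand is not given in the sources used here. At E15.5 *Zic1* was spread over all 3 regions, with 49.1 CPM in meningeal, 37.2 in ectocranial and 51.4 in osteogenic cells. Its highest clusters there were EC4 at 87.0 CPM, PO1 at 83.7, PO2 at 74.4, MG1 at 72.5 and OG2 at 71.9, all overlapping in order, and its lowest were EC3 at 15.4 and OG4 at 6.08. At E17.5 MG4 led at 284 CPM (261 to 309), followed by LIG at 212 (202 to 221), EC4 at 138 and MG1 at 135. EC1, EC2 and EC3 had 54.2, 56.2 and 70.6 CPM, and the osteogenic clusters ran from 25.0 in OG4 to 70.4 in PO2. The steps from MG4 to LIG and from LIG to EC4 were beyond counting error. *Zic4* had the same leaders at E17.5, 112 CPM in MG4 (97.6 to 128), 61.7 in LIG, 43.8 in MG1 and 39.0 in EC4. At E15.5 no neighbours in its order were apart, from 26.9 CPM in PO2 (13 UMIs) and 21.1 in MG4 (14 UMIs) down to 0 UMIs in MG1 and OG4, which allow up to 11.5 and 1.66 CPM.

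Whether the pair met in the same cells was read within clusters, after thinning each cell to 3000 UMIs. *Zic1* was found in a larger share of the cells with *Zic4* than without it in 8 of 13 clusters at E15.5 and in 11 of 15 at E17.5. In EC4 at E17.5, *Zic1* was found in 50% (33.4 to 66.6) of cells with *Zic4* and in 27.7% (23.0 to 32.9) of cells without it, while at E15.5 the EC4 shares were 16.7% and 22.4%. At E17.5 the MG4 shares were 61.3% and 52.1% and those of LIG 53.4% and 46.2%, with overlapping intervals. Pooled over clusters, the odds ratio of *Zic1* and *Zic4* was 1.73 at E15.5, from 31 cells with both genes, and 1.43 at E17.5, from 164. Of the other 5 pairs examined, with 9 to 137 such cells, *Foxc1* with *Foxc2* (1.17 at E15.5), *Tbx15* with *Tbx18* (1.04 at E17.5) and *Tbx18* with *Foxd1* (1.91 at E15.5) fell to 0.910, 0.993 and 0.700 when the UMIs were drawn again, so nothing is read from those 3. On the same redraw *Foxc1* with *Zic1* moved from 1.44 to 1.05 at E15.5 and from 1.13 to 1.06 at E17.5, *Foxc1* with *Foxd1* from 1.08 to 1.11 and from 1.20 to 1.52, and *Zic1* with *Zic4* from 1.73 to 1.55 and from 1.43 to 1.51.

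*Tbx15* and *Tbx18* are T-box genes of the trunk and head mesenchyme, and *Tbx18* is also known from mural cells of vessels. *Tbx18* was the more restricted. MG4 led in each sample, with 75.2 CPM (55.9 to 99.2) and then 70.0 (58.6 to 83.0), apart from its next neighbour in both. MG3 had 20.3 CPM (40 UMIs) and 22.5 CPM and MG2 2.70 and 4.34. MG1 had 0 of 261939 UMIs at E15.5, in 28 cells, which allows up to 11.5 CPM, and 41.6 CPM in 423 cells at E17.5. The 6 pericyte markers summed to 37.6 and 52.1 CPM in MG4, led by *Cspg4* (19.6) and *Notch3* (20.5), with *Higd1b* at 0 in both samples. In the other MG clusters they summed to 70.7 to 91.6 CPM at E15.5 and 45.8 to 84.3 at E17.5. Their part in the *Tbx18* level was not tested. *Tbx15* was highest in MG3 in both samples, at 38.7 CPM (30.5 to 48.4) and 46.6 (37.7 to 56.9), overlapping with MG4 at 27.1 and 41.6, while MG2 was at 15.2 and 8.26. In ectocranial clusters *Tbx15* ran from 14.04 CPM in LIG to 25.5 in EC3 at E15.5 and from 9.56 in LIG to 21.5 in EC2 at E17.5. *Tbx18* ran there from 2.76 CPM in LIG to 21.5 in EC3, and then from 2.67 in EC4 to 11.7 in EC3.

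*Lmx1b*, a LIM-homeodomain gene of the limb and the skull vault, was the sparsest, with 92 labelled-cell UMIs in the E15.5 sample and 579 in the E17.5 sample. All neighbours in its order overlapped in both samples. Its highest levels at E17.5 were 13.4 CPM in MG1 (10.6 to 16.9) and 11.9 in LIG (9.82 to 14.4), and its lowest was 2.38 in OG4.

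**Figure D2:**
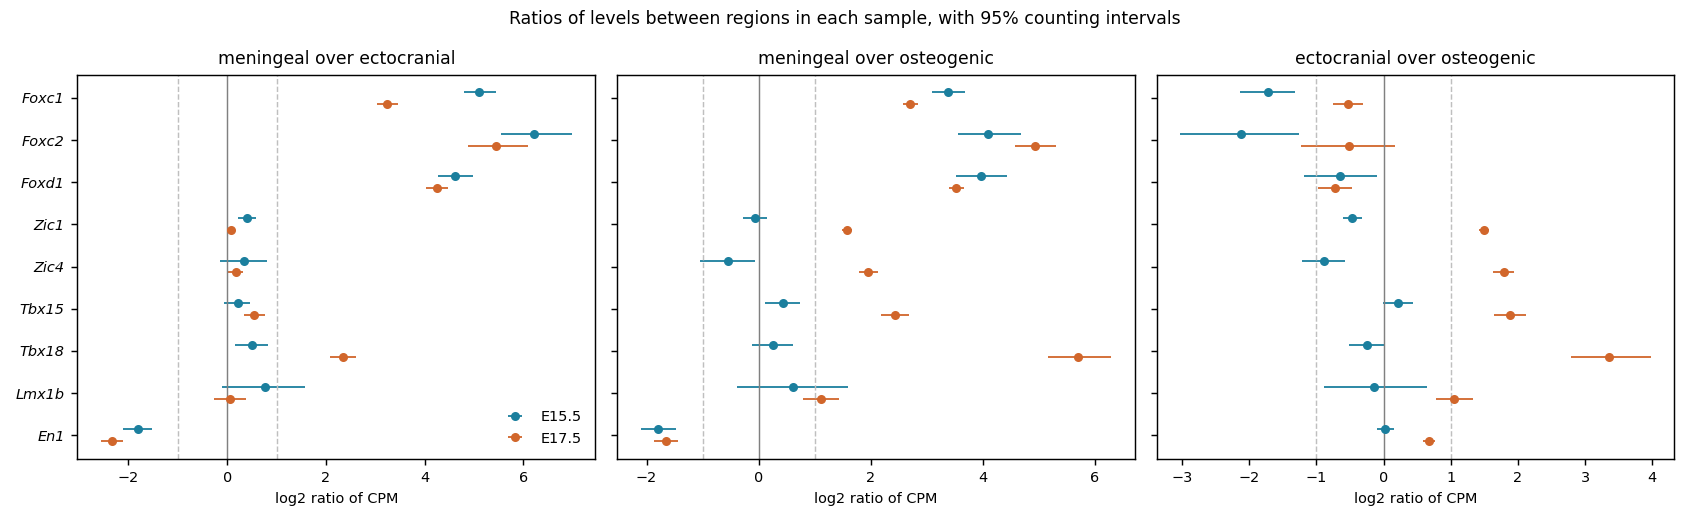
Log2 ratio of the level in one region to that in another, for each gene at E15.5 (blue) and E17.5 (orange), with exact 95% counting intervals; dashed lines mark 2-fold. The Fox genes lie to the right and *En1* to the left wherever meningeal cells are compared, in both samples, while the Zic and Tbx genes pass 2-fold against osteogenic cells only at E17.5.

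The separation of the other genes from the osteogenic cells differed between the samples. At E15.5, 3 of 9 genes were at least 2-fold higher in meningeal than in osteogenic cells (*Foxc1*, *Foxc2* and *Foxd1*), where 8.94% of all genes were, and 0 of 9 in ectocranial over osteogenic cells, where 8.98% were. At E17.5 the counts were 8 of 9 (all but *En1*), against 11.4% of all genes, and 5 of 9 (*Zic1*, *Zic4*, *Tbx15*, *Tbx18* and *Lmx1b*), against 10.2%. In barcode suffix 1 alone 6 of 9 genes passed the limit in meningeal over osteogenic cells, with *Zic4* at 1.82 and *Lmx1b* at 1.84, and in suffix 3 *Lmx1b* was at 1.95. The 11.4% and 10.2% belong to the whole E17.5 sample, and no share of all genes is given for a suffix alone. These counts for each sample alone were added after the values were seen. No gene was at least 2-fold higher in ectocranial than in osteogenic cells in both samples, against 5.99% of all genes, and none in the reverse direction, against 3.00%. The *Tbx18* ratio of ectocranial to osteogenic cells was 0.843 (0.700 to 1.02) at E15.5 and 10.3 (6.94 to 15.8) at E17.5. For *Zic1* the same ratio was 0.723 (0.655 to 0.8) and 2.82 (2.67 to 2.97). In barcode suffix 1 of E17.5 alone it was 1.99 for *Zic1* and 1.94 for *Zic4*, just inside the limit, and 2 of 9 genes passed it. At E17.5 the summed ectocranial calls did not hold in every cluster. *Zic1* was at 54.2 to 70.6 CPM in EC1 to EC3, 138 in EC4 and 212 in LIG, against 44.7 in osteogenic cells. *Zic4* was at 11.3 to 16.8, 39.0 and 61.7 CPM, against 9.97. *Lmx1b* was at 6.68 to 7.17 CPM in EC1 to EC4 and 11.95 in LIG, against 4.22. The levels in EC1 to EC3 were under 2-fold for these genes, as was *Lmx1b* in EC4.

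Ratios of the stages within a region set different mixes of clusters side by side, since MG1 made up 28 of 642 meningeal cells in the earlier sample and 423 of 1263 in the later one, LIG 497 of 3406 and 675 of 2142 ectocranial cells, and OG2 488 of 1287 and 522 of 3425 osteogenic cells. Set against E15.5 in this way, 4 genes were at least 2-fold higher in the meningeal cells at E17.5 (7.33% of all genes) and 0 at least 2-fold lower (5.56%). *Foxd1* was at 63.1 and 129 CPM, a ratio of 2.04 (1.82 to 2.29), *Zic1* at 49.1 and 133, a ratio of 2.71 (2.39 to 3.07), *Zic4* at 8.19 and 38.8, a ratio of 4.74 (3.52 to 6.50), and *Lmx1b* at 2.90 and 9.10, a ratio of 3.14 (1.89 to 5.55). Each of the 4 was higher at E17.5 in all 4 MG clusters, with *Foxd1* ratios from 1.36 in MG2 to 2.85 in MG3 and *Zic1* ratios under 2-fold in MG1, MG2 and MG3. For *Lmx1b* the E15.5 counts were 2, 12, 3 and 0 UMIs in MG1 to MG4. Its ratio intervals in MG1 (0.470 to 14.8) and MG2 (0.762 to 3.29) included 1. In MG4 the *Zic1* and *Zic4* ratios were 4.97 (3.58 to 7.10) and 5.32 (3.1 to 9.90). In MG1 *Zic4* had 0 UMIs at E15.5 and 241 at E17.5, so that its ratio there has a lower limit alone (3.08). *Foxc1* had a ratio of 0.805 and *Foxc2* of 0.914. With barcode suffix 1 as the only E17.5 cells, 2 genes passed the limit, and *Foxd1* at 113 CPM and *Zic1* at 96.0 fell short of it.

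In ectocranial cells 5 genes were at least 2-fold higher at E17.5 (5.80% of all genes), namely *Foxc1*, *Foxd1*, *Zic1*, *Zic4* and *Lmx1b*, and 1, *Tbx18*, was at least 2-fold lower (7.34%). *Zic1* was at 37.2 and 126 CPM (ratio 3.39, 3.17 to 3.63) and *Zic4* at 6.43 and 34.5 (ratio 5.36, 4.59 to 6.27), higher at E17.5 in all 5 clusters. By cluster the *Zic1* ratio was 1.59 in EC4, 1.82 in EC2, 2.06 in EC1, 3.14 in LIG and 4.59 in EC3, and with each cluster given the same weight it was 2.34. *Lmx1b* was at 1.71 and 8.76 CPM (ratio 5.14, 3.80 to 7.06), also higher in all 5. Its E15.5 level lay within the myeloid-like interval of that stage (0.0636 to 1.90 CPM), so 5.14 is a ratio over a background level. *Foxc1* did not reach 2-fold in barcode suffix 1 alone, with 4.23 CPM against 2.93 at E15.5 (ratio 1.44), while suffixes 2 and 3 gave 2.96 and 3.64. *Foxc1* and *Foxd1* stayed low, at 8.61 and 6.77 CPM at E17.5, where the myeloid-like cells had 2.20 and 2.40, and their E15.5 levels were no higher than those of the myeloid-like cells of that stage. *Foxd1* was lower at E17.5 in EC2 (3.15 and 1.76 CPM) and higher in the other 4 clusters. The *Tbx18* ratio of 0.4995 (0.411 to 0.604) lay at the limit itself. It was lower in EC1, EC3 and EC4 and had ratios of 1.26 (0.899 to 1.75) in EC2 and 1.26 (0.619 to 2.77) in LIG. EC3, its highest ectocranial cluster, made up 1185 of the 3406 ectocranial cells in the earlier sample and 194 of 2142 in the later one, so the summed ratio sets different mixes of clusters side by side, and several other ways of reading the data put it on the other side.

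In osteogenic cells *Foxd1* and *Lmx1b* were at least 2-fold higher at E17.5 (2 of 9, against 5.36% of all genes), and *Tbx15* and *Tbx18* at least 2-fold lower (2 of 9, against 12.6%). *Foxd1* was at 4.03 and 11.2 CPM, and *Lmx1b* at 1.89 (22 UMIs) and 4.22. Both E15.5 levels lay within the myeloid-like intervals of that stage, which reached 4.83 and 1.90 CPM. By cluster *Foxd1* was lower at E17.5 in OG4 alone (0.862) and *Lmx1b* in OG3 alone (0.665). In barcode suffix 1 alone *Lmx1b* was at 3.23 CPM, short of 2-fold. *Tbx18* was at 14.1 CPM (12.0 to 16.4) at E15.5 and 0.575 (0.388 to 0.821) at E17.5, a ratio of 0.0409 (0.0267 to 0.0606). It was at 19.8, 19.3, 12.7 and 26.9 CPM in OG1, OG2, PO1 and PO2 at E15.5 and at 0.669, 0.883, 0.413 and 0 CPM in the same clusters at E17.5. OG3 had 5.41 and 0.311 CPM, and OG4 was low at both stages, at 0.553 (1 UMI) and 0.762, so 5 of 6 clusters were lower at E17.5 and 1 higher. The E17.5 osteogenic level lay within the interval of the myeloid-like cells, 0.00507 to 1.12 CPM. *Tbx15* was at 18.5 and 4.31 CPM (ratio 0.233, 0.192 to 0.282) and lower at E17.5 in all 6 clusters. The 3 barcode suffixes of E17.5 had 0.1196 (1 UMI), 0.642 and 0.682 CPM of *Tbx18*, all far below E15.5. *Zic1* and *Zic4* had osteogenic ratios of 0.870 and 0.836, with 3 of 6 clusters higher and 3 lower for each. *Zic1* was higher at E17.5 beyond counting error in OG1 (1.86), OG3 (2.05) and OG4 (4.11) and lower in OG2 (0.680) and PO1 (0.609), and with equal cluster weights its ratio was 1.02. The OG4 level at E15.5 (6.08 CPM, 11 UMIs) was no higher than that of myeloid-like cells (6.57 CPM, 4.25 to 9.69).

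**Figure D3:**
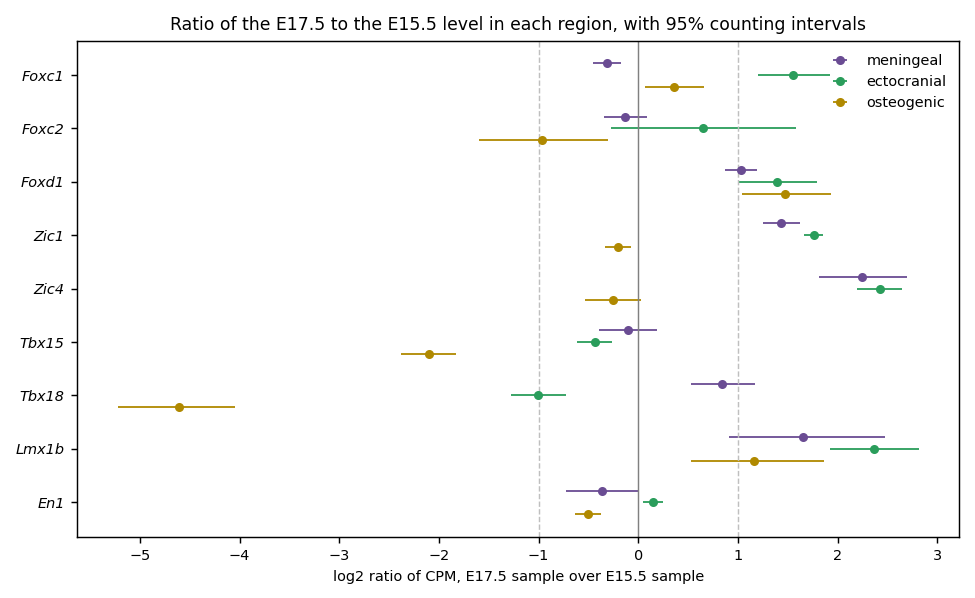
Log2 ratio of the E17.5 to the E15.5 level of each gene in meningeal (purple), ectocranial (green) and osteogenic (ochre) cells, with exact 95% counting intervals; dashed lines mark 2-fold. *Zic1* and *Zic4* lie right of 0 in meningeal and ectocranial but not in osteogenic cells, and the osteogenic *Tbx18* ratio is 0.0409.

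The spread among barcode suffixes gives the only view of variation within a stage. For meningeal *Foxd1* the 3 suffixes had 113, 127 and 135 CPM, all above the E15.5 level. For *Zic1* they had 96.0, 145 and 134 CPM in meningeal and 82.8, 141 and 133 in ectocranial cells, with suffix 1 the lowest in both and still above E15.5. Suffix 1 held 32 LIG cells among 476 ectocranial cells, against 314 of 816 and 329 of 850, and within LIG its *Zic1* level overlapped with the others, at 242, 209 and 212 CPM. Meningeal *Tbx18* was at 9.90 CPM in suffix 1 and at 33.3 and 33.4 in suffixes 2 and 3, around the 16.7 of E15.5. Suffix 1 held 0 cells of MG1 and 7 of MG4, the clusters where *Tbx18* was highest at E17.5.

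**Figure D4:**
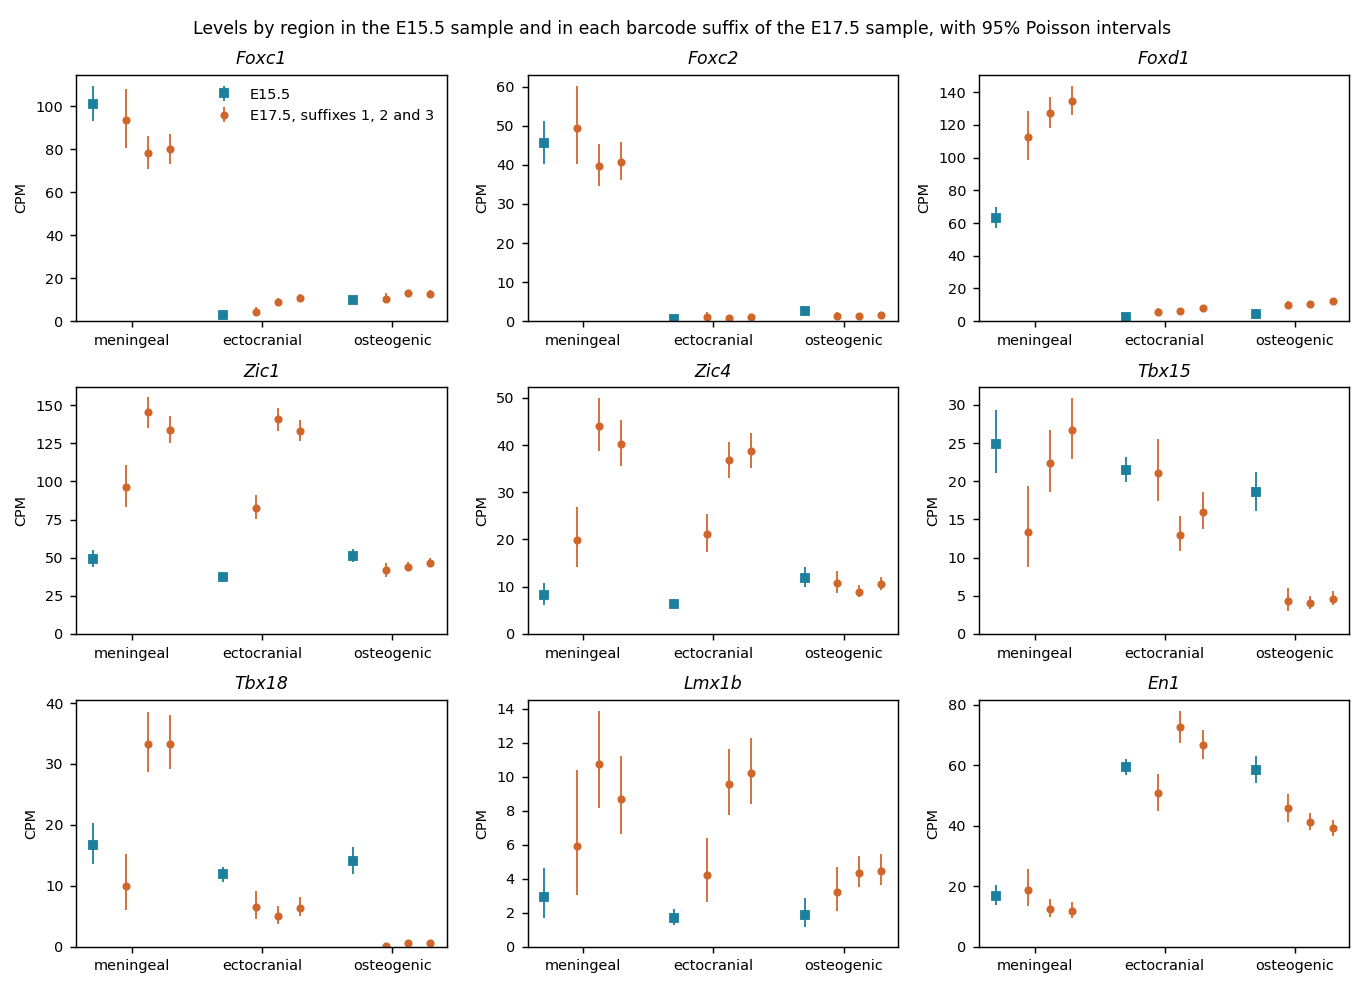
Level of each gene (CPM) in meningeal, ectocranial and osteogenic cells at E15.5 (blue squares) and in barcode suffixes 1, 2 and 3 of E17.5 (orange circles, left to right), with exact Poisson 95% intervals. All 3 suffixes lie below E15.5 for osteogenic *Tbx15* and *Tbx18*, and suffix 1 is the lowest for meningeal *Zic1*, *Zic4* and *Tbx18*.

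Cells without a deposited label showed where else the genes were found. The 2875 (E15.5) and 1937 (E17.5) of them that passed the study's filters were clustered and named from markers, and 6 types were found in both samples. Of the 54 pairs of a gene and a type, 11 reached 10 CPM in both. No share over all genes was computed for this count, so it is a description. Pericyte-like cells (192 and 174) had *Tbx18* at 32.1 CPM (25.1 to 40.3) and 39.9 (32.0 to 49.0), *Foxc2* at 18.0 and 40.3, *Foxc1* at 27.7 and 30.6 and *En1* at 39.5 and 23.9. Chondrocyte-like cells (822 and 318) had *Foxc1* at 57.0 CPM (52.4 to 61.8) and 99.4 (88.8 to 111), *Foxc2* at 19.1 and 32.8 and *Zic1* at 28.1 and 86.4. At E15.5 the name covered 3 clusters, none with one of its markers among its top 10 genes, and 1 of them was led by cell cycle genes. At E17.5, 197 of the 318 cells came from a cluster led by *Clu*, *Prg4* and *Chad*, which led none of the 3 E15.5 clusters, so the E15.5 and E17.5 values may not come from the same kinds of cells. Endothelial-like cells (46 and 119) had *Foxc1* at 20.6 and 26.97 CPM. Neuron- or pineal-like cells, named at E17.5 alone (97 cells), had *Zic1* at 69.5 CPM and *Zic4* at 22.5. The cells left unnamed (896 and 346) had *Foxc1* at 60.5 and 20.7 CPM, *Zic1* at 40.1 and 45.2 and *En1* at 38.9 and 34.7. Myeloid-like cells (397 and 479, median 8843 and 9552 UMIs), which should lack these genes, gave the background: 0.525 to 9.98 CPM over the 9 genes at E15.5 and 0.200 to 7.40 at E17.5.

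**Figure D5:**
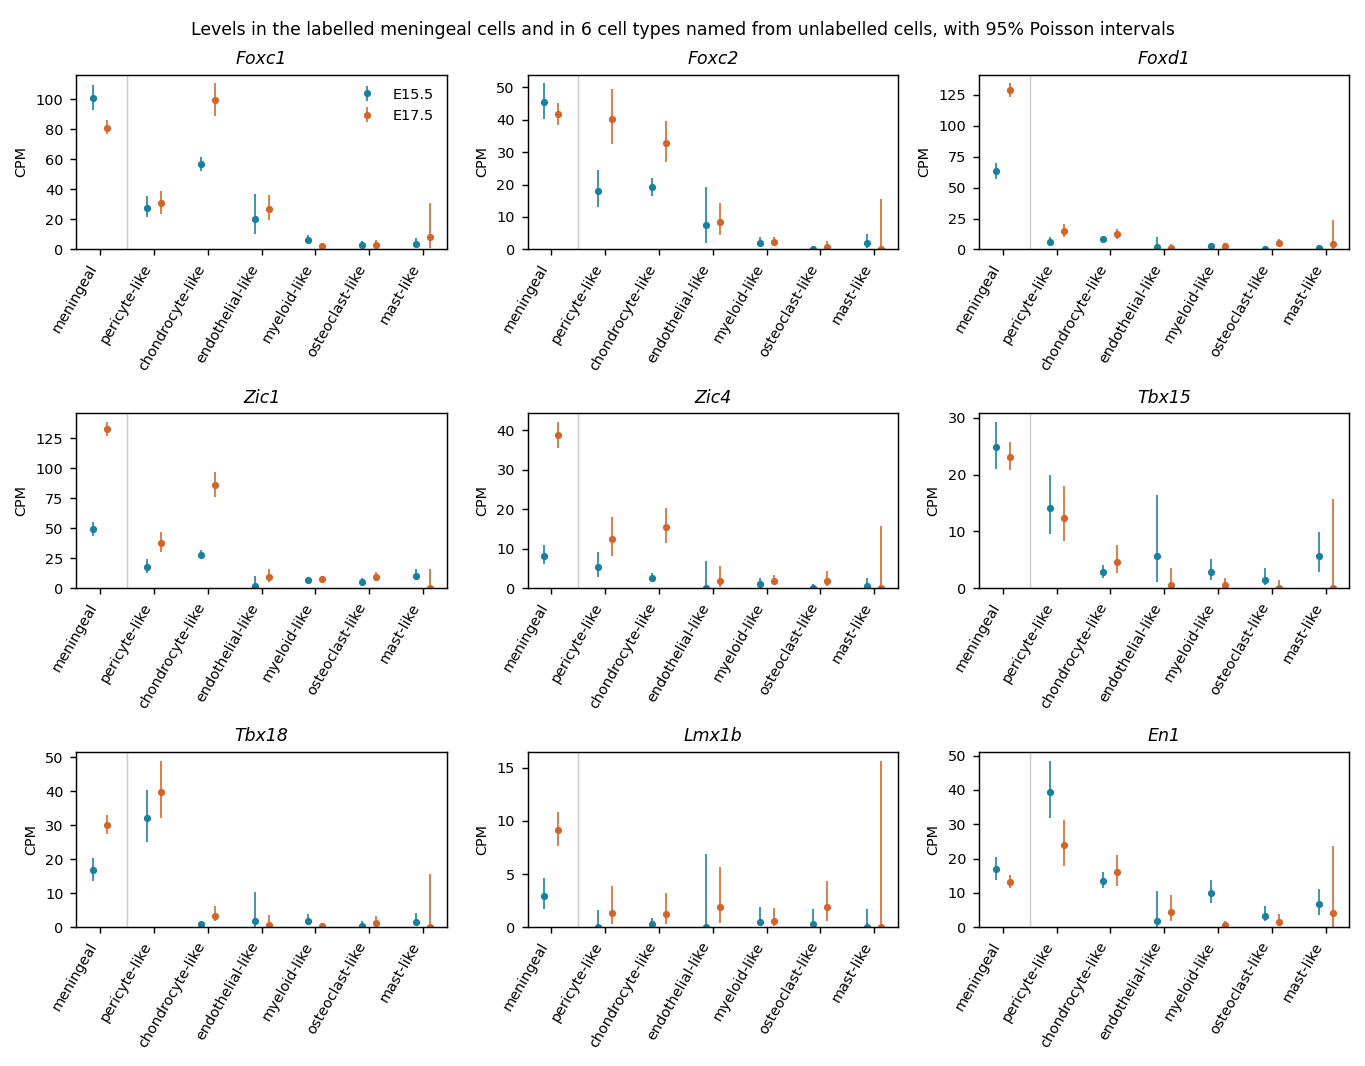
Level of each gene (CPM) in the labelled meningeal cells and in 6 cell types named from unlabelled cells at E15.5 (blue) and E17.5 (orange), with exact Poisson 95% intervals. *Tbx18* reaches 32.1 and 39.9 CPM in pericyte-like cells and *Foxc1* 57.0 and 99.4 in chondrocyte-like cells, while no gene passes 10.4 CPM in myeloid-like, osteoclast-like or mast-like cells.

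Over the 30 cluster profiles (15 clusters in 2 samples, log2 of CPM + 1, centred in each sample), *Foxc1* varied with *Foxd1* (Pearson r 0.91) and *Foxc2* (0.87), *Zic1* with *Zic4* (0.76) and *Tbx15* with *Tbx18* (0.76). *En1* varied against *Foxc2* (-0.89) and *Foxd1* (-0.86). The profiles share samples and cells of 1 tissue, so these values describe the pattern and carry no test. The genes with the most similar profile were *Fxyd5* and *Shisa3* for *Foxc1* (0.93 each), *Fxyd5* for *Foxc2* (0.94), *Slc23a2* for *Foxd1* (0.94), *Cntfr* for *Zic1* (0.84), *Pex19* for *Zic4* (0.79), *Nrxn2* for *Tbx15* (0.87), *A4galt* for *Tbx18* (0.82), *Six5* for *Lmx1b* (0.76) and *Meis2* for *En1* (0.90). With Spearman's rho, 5 of the 27 pairs of a factor and a similar gene (3 for each factor) were found again.

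Relatives of the 9 genes were read from a list of 69 genes of the Fox, Zic, T-box, LIM-homeobox and Engrailed families. Of these, 16 reached 10 CPM in some cluster of at least 50 cells in both samples, and 6 of the 16 were at least 2-fold higher in meningeal than in ectocranial cells in both, while 1 was the reverse, beside 3.14% and 4.50% of all genes. The minimum of 10 CPM in a cluster can itself select genes high in 1 region, as for *Zic2* (MG4) and *Lmx1a* (EC2), so these counts are a description. The 6 were *Foxp1* (362 and 96.7 CPM at E15.5, 293 and 103 at E17.5), *Foxp2* (330 and 144, 202 and 96.6), *Foxp4*, *Foxo1*, *Zic2* and *Zic5*. *Zic2* was highest in MG4 in both samples, at 15.1 and 38.4 CPM, and so was *Zic5*, at 34.6 and 33.2. *Tbx2* was highest in OG4, at 12.2 and 19.8 CPM, and *Lmx1a*, the relative of *Lmx1b*, in EC2 at 12.5 and 10.1, the reverse of the 6. The other 8, *Foxj3*, *Foxk1*, *Foxk2*, *Foxm1*, *Foxn2*, *Foxn3*, *Foxo3* and *Mga*, stayed within 2-fold between these regions in both samples. *Foxm1*, a cell cycle regulator, was highest in PO1 in both samples, at 21.1 and 23.9 CPM, with PO2 next at E17.5 at 19.8. The highest clusters of all these relatives were read among clusters of at least 50 cells, so MG1 and PO2 were not ranked at E15.5. The remaining 53 did not reach 10 CPM in both samples, 10 of them with no UMI in either.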

How the data were processed

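Single cells were captured on the 10x Chromium platform. The authors deposited, for each stage, a matrix of UMI counts per gene and barcode, not normalized, and a table with the cluster and the UMI counts of each cell. Per the submitters' processing notes Cell Ranger, FastQC 0.11.7, MultiQC 0.9, Seurat 3.2.0 and the mm10 build were used. The Cell Ranger version differs between the sources. Whether counting used strand is not given in the sources used here. A composite table of values was not used.

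UMI counts were summed over the labelled cells of each cluster, region (MG, EC with LIG, OG with PO) and barcode suffix and divided by all UMIs of the same cells. Ratios have exact conditional intervals, shares of cells Clopper-Pearson intervals, all at 95%. A count of 0 was read as allowing 3 counts. A gene was counted where a ratio reached 2-fold in both samples, and the same count over the 12150 genes with at least 50 UMIs in each sample gives the background. All labelled cells in the matrices were kept, 93 at E15.5 outside the study's filters included, and 5 labelled cells had no barcode in the matrix. No doublet caller was run and no doublet was removed.

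Unlabelled cells were kept with at least 1000 UMIs, at least 1000 detected genes and at most 7.5% mitochondrial UMIs. The hemoglobin maximum of 3% of UMIs was applied to the Hbb and to the Hba genes separately. The kept cells were clustered with scanpy 1.11.5 (2000 variable genes, 30 principal components, 30 neighbours, Leiden resolution 1). A cluster could be named where at least 3 markers of a list were 2-fold higher in it. A marker of that list also had to be among its top 10 genes, or at least 0.8 of the list higher. The 0.8 limit was set after the clusters were seen. Not every cluster within these limits was named. At E15.5, 86 cells with 5 of 5 glia markers and 140 with 5 of 6 chondrocyte markers stayed unnamed. So did 8 cells with 4 of 5 erythroid markers. The chondrocyte-like and unnamed values depend on these choices.

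Named were all 9 genes and the relatives that reached 10 CPM in a cluster of at least 50 cells in both samples. The 3 genes with the most similar profile to each were found, of which the closest is named, with *Shisa3* beside it for *Foxc1*. Levels in clusters where a gene was low are given as ranges, and every cluster is plotted. The members and lists were chosen with earlier results of these data known. Positions are from GENCODE vM21 on GRCm38. Python 3.11.15, NumPy 2.4.6, pandas 2.3.3, SciPy 1.17.1 and matplotlib 3.10.9 were used, and the scripts were tested on simulated data. Alternatives changed the scaling, cell weights, thinning, cells kept, suffixes, fold limit, clusters and clustering.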

Additional observations from a re-analysis of the deposited data

Results flagged for a closer look

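For 4 of the 9 genes the ratio of the E17.5 to the E15.5 level pointed in opposite directions in different regions, counting a gene only where the interval of a ratio lay wholly above 1 in some region and wholly below 1 in another. On the ratios alone *Zic4* (4.74, 5.36 and 0.836) and *Foxc2* (0.914, 1.57 and 0.512 in meningeal, ectocranial and osteogenic cells) would join them. No share over all genes was computed for this rule, so 4 of 9 is a description and cannot be called unusual. *Foxc1* had ratios of 0.8045 in meningeal, 2.94 in ectocranial and 1.282 in osteogenic cells, and barcode suffix 1 of E17.5 alone gave 1.44 for the ectocranial ratio. Its ectocranial level at E15.5 (2.93 CPM) was below that of myeloid-like cells (6.30), so 2.94 is a ratio over a background level. For *Zic1* the ratios were 2.705, 3.388 and 0.8697 in the same order, for *Tbx18* 1.796, 0.4995 and 0.04088, and for *En1* 0.7749, 1.109 and 0.7046. The osteogenic *Zic1* ratio was 1.02 with equal cluster weights, with intervals wholly above 1 in OG1, OG3 and OG4 and wholly below in OG2 and PO1. In OG4 the E15.5 *Zic1* level was no higher than that of myeloid-like cells. With 1 sample a stage the difference between regions was not tested for any of them. *En1* was lower at E17.5 in 4 of the 5 ectocranial clusters and higher in EC3 alone (1.13, 0.921 to 1.38), while LIG, its highest cluster, made up 497 of the 3406 ectocranial cells in the earlier sample and 675 of 2142 in the later one. The meningeal *Tbx18* ratio was 1.30 over the clusters with at least 50 cells in both samples, and its level in barcode suffix 1 (9.90 CPM, no MG1 cell) lay below the 16.7 CPM of E15.5, a ratio of 0.592.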

How the results depend on the processing

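When the processing was varied, 201 of 215 recomputed counts stayed within 1.5 times the reported count. Of the 999 recomputed ratios of the 9 genes, 116 moved beyond the counting interval of the reported ratio, 36 of 81 with suffix 1 alone, and 0 reversed a direction past 2-fold. Part of these values could not move. The suffix settings kept the same E15.5 cells, so counts and ratios within E15.5 were fixed there. The 1.5-fold limit left all 81 ratios as they were, and leaving out cells outside the study's filters removed no labelled E17.5 cell. These totals therefore overstate how stable the values were. The count of genes lower at E17.5 in ectocranial cells (1, *Tbx18*) became 0 with the mean of single-cell CPM, thinned shares, the deepest cells left out, equal cluster weights, and barcode suffix 1 or suffix 3 alone, and 2 without cells holding pericyte, endothelial or myeloid markers, which kept 3281 of 5335 and 1645 of 6830 cells. The count higher at E17.5 in osteogenic cells (2) became 1 with thinned shares and with suffix 1 alone. Suffix 1 alone also gave 2 genes higher at E17.5 in meningeal cells (4 reported), 2 higher in ectocranial than osteogenic cells at E17.5 (5 reported) and 1 higher in osteogenic than ectocranial cells (0 reported). A 1.5-fold limit gave 24 pairs of a gene and a cluster (15 reported) and 1 gene higher in osteogenic than ectocranial cells. No shares of all genes are given for the counts under these alternatives, so they cannot be set against a background. Over all genes the median log2 ratio lay between -0.10 and 0.08. The cause of these shifts was not tested.

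With 1 sample a stage there is no error between samples, the 3 suffixes of E17.5 give the only spread within a stage, and MG1 (28 cells) and PO2 (35 cells) limit what E15.5 can show. No paired analysis was possible because the stages share fewer than 2 sample numbers. Region ratios within each suffix were compared side by side, with no test.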
